A study of Homo sapiens with 6 samples.

Results

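Transcripts of 47 genes that drive mitosis, its checkpoint and cytokinesis were examined in cisplatin-treated HK-2 cells, an immortalised epithelial line from the human kidney proximal tubule. The members are a list of gene names with roles in cell division, drawn up with earlier results of these data known, and 46 of the 47 were found by symbol among the 18969 genes of the deposited table; NUSAP1 was not analysed here. All 6 libraries came from cells given 20 µM cisplatin, a platinum drug that crosslinks DNA, and there was no group without it. Of these, 3 libraries carry the label Nfe2l1 overexpression, and the other 3 are controls of wild-type (WT) HK-2 cells with the same drug. NFE2L1 is a transcription factor, also called Nrf1, known for switching on proteasome genes. The vector and the time of exposure are not stated in the labels, nor whether each library had its own culture; the p-values therefore rest on differences among libraries that could be technical.

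Mitosis is run by a kinase switch, CDK1 with its cyclins, which condenses chromosomes and builds the spindle. Kinetochores, the protein plates on centromeres, bind spindle fibres, and the checkpoint holds back the anaphase-promoting complex until every chromosome is attached. The chromosomal passenger complex corrects faulty attachments, and after anaphase a contractile furrow separates the daughter cells. In dividing cells most of these transcripts rise late in the cycle, under control of the DREAM and B-MYB complexes and FOXM1.

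Library depth ran from 16865460 to 23458333 counted reads. Levels are given as CPM, the read count scaled to library size with TMM factors, in the order of library 1, 2 and 3 of a group. NFE2L1 itself stood at 245, 744 and 339.5 CPM in the libraries labelled overexpression, against 234, 253 and 246 CPM in controls. Library 1 labelled overexpression thus lay inside the control range, and every direction below includes it. The log2 fold change of NFE2L1 was 0.86 (SE 0.35), which did not pass (edgeR adjusted p = 0.115; exact two-sided permutation p = 0.3, where 0.1 is the smallest that 3 against 3 libraries allow). Of 12 proximal tubule line markers 7 could be tested, with KRT8, KRT18, KRT19, CDH2 and PAX8 at 46.7 CPM or more in every library, GGT1 at 0.495 to 1.42 CPM, and AQP1 and SLC34A1 at 0.515 CPM or less. MME, a brush border peptidase, fell to 8.53, 5.1 and 7.49 CPM in the libraries labelled overexpression, against 19, 23 and 18.5 CPM in controls (edgeR log2 fold change -1.52, adjusted p = 0.0114), and KRT18 rose (0.62, adjusted p = 0.0207). With each library's trend on gene length and GC content offset, KRT18 stood at 0.08 and KRT8 at 0.09, and neither passed. MME then stood at -0.91 (edgeR adjusted p = 0.0481). ANPEP, LRP2 and CUBN were not analysed here. The summed level of the 9 with a row, most of it KRT8 and KRT18, was 2114 to 2839 CPM in the libraries labelled overexpression, against 1700 to 1783 CPM in controls. Of the fibroblast markers LUM fell, at 12.7, 15.5 and 16.4 CPM in the libraries labelled overexpression, against 41.9, 35.1 and 42.2 CPM in controls. COL1A1 overlapped between groups at 6.68, 12 and 6.79 CPM against 9.43, 6.71 and 6.96 CPM. That list, most of it LUM, summed to 19.4 to 28.2 CPM in the libraries labelled overexpression, against 42.6 to 51.9 CPM in controls. The leukocyte list summed to at most 4.21 CPM, and the endothelial markers were not analysed here. Whether these markers bear on the mitotic genes was not tested.

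Of the 46 mitotic genes, all of which passed the filter on low counts, 13 fell and 4 rose with the overexpression label (adjusted p under 0.05 by edgeR, Benjamini-Hochberg over 15046 genes). That is 28.3% falling and 8.70% rising, beside 9.49% and 9.62% of all genes tested. The fallers were ANLN, KNL1, BUB1B, ASPM, ECT2, CENPF, CENPE, TTK, MKI67, HMMR, BUB1, SMC2 and DLGAP5, and the risers SPC24, PTTG1, CDC20 and AURKB. The median log2 fold change of the members was -0.38 (range -1.58 to 0.96), against 0.03 over all genes tested. Every library labelled overexpression lay below every control for 25 members, or 54.3%, beside 20.9% of all genes, and above every control for 9, or 19.6%, beside 21.8%. In bulk RNA, fewer cells in mitosis and less transcript per mitotic cell cannot be told apart. The fold changes also followed gene length and GC content, as set out below. With both offset 3 members fell and 0 rose, at a median of -0.13, where 0.538% of all genes fell and 1.06% rose.

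The counts depended on single controls and on the scaling. Without control 1 or without control 2 no member passed (edgeR; 17 and 18 members were lower and 4 in each case higher at an unadjusted p under 0.05), and without control 3, 7 fell and 0 rose. Without library 3 labelled overexpression 11 fell and 2 rose. On total counts, where the median of all genes was -0.11, 21 fell and 2 rose; on FPKM brought to a common sum, where it was -0.41, 31 fell and 0 rose. On log2(FPKM + 1), at a median of -0.10, 23 fell and 3 rose (limma).

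**Figure D1:**
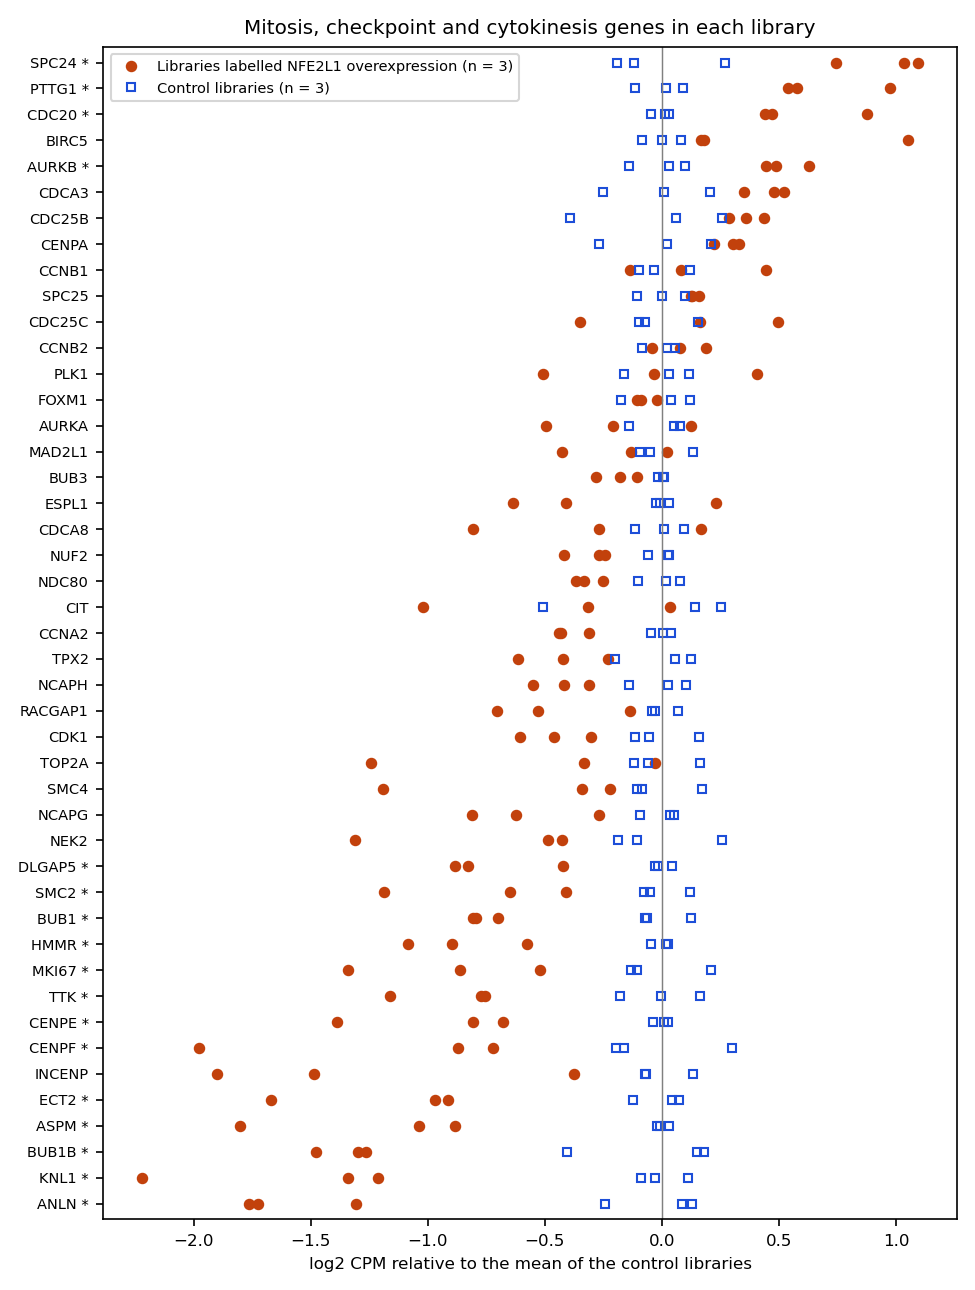
Each row is a gene (PRC1 left out for its low counts) and each mark a library, placed at its log2 CPM relative to the mean of the 3 controls; filled circles are the libraries labelled NFE2L1 overexpression, open squares the controls, and an asterisk marks an adjusted p under 0.05 (edgeR). The lowest rows, from BUB1 to ANLN, have all circles left of all squares, and in SPC24, PTTG1, CDC20 and AURKB all circles lie to the right.

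The proximal promoters of the members share sequence elements that the choice of members did not use. The CHR, cell cycle genes homology region, is bound by the DREAM and B-MYB complexes, and CCAAT boxes are bound by NF-Y; both are background on late cell cycle promoters. RefSeq promoter windows (GRCh38.p14, 250 bases before to 50 after a start) were at hand for 38 of the 46 members. RACGAP1, AURKA, FOXM1, BIRC5, BUB3, TTK, TPX2 and KNL1 had no entry. The hexamer TTTGAA, on either strand, occurred in 31 of 50 member windows, or 62%, against 15.2% of all 35116 windows. CCAAT, on either strand, occurred in 35 of 50, or 70%, against 34.6%. A TTTGAA match and a CCAAT match can share at most an end letter, and CCAAT overlaps its own reverse complement where both occur side by side. Shown here are 3 members that fell and 3 that rose, from 100 bases before to 50 after the start, 5′ to 3′ on the coding strand. Capitals mark the CHR letters TTTGAA, read as TTCAAA when the motif lies on the other strand, and the box letters CCAAT, likewise read there as ATTGG.
ANLN, fell, chr7:36389762-36389911, plus strand: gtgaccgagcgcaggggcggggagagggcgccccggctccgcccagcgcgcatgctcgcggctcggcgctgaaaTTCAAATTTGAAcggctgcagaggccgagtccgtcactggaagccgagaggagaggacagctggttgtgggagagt
BUB1B, fell, chr15:40160969-40161118, plus strand: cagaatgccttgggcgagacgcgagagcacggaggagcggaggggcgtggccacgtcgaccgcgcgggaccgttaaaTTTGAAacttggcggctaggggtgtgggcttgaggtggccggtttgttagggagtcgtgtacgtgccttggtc
HMMR, fell, chr5:163460532-163460681, plus strand: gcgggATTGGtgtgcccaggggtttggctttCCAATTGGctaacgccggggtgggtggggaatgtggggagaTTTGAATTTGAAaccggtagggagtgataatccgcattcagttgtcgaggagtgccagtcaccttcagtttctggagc
CDC20, rose, chr1:43358881-43359030, plus strand: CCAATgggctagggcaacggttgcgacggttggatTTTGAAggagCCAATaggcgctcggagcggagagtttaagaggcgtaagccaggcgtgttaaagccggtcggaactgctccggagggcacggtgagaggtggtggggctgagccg
PTTG1, rose, chr5:160421755-160421904, plus strand: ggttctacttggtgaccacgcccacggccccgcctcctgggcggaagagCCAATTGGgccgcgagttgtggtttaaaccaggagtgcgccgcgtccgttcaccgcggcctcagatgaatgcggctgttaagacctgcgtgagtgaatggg
SPC24, rose, chr19:11155733-11155882, minus strand: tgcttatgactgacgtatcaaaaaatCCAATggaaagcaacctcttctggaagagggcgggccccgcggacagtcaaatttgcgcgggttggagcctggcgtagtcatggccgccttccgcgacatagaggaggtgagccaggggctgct

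Counted from the start, with -1 as the base before it, the CHR letters begin at -26 and -20 in ANLN, where the copies abut on opposite strands, at -23 in BUB1B and at -28 and -22 in HMMR. In CDC20 they begin at -65, between CCAAT boxes at -100 and -55. PTTG1 and SPC24 have CCAAT letters at -51 and -74 and no TTTGAA in their windows. Only this hexamer was searched, so a CHR with other letters would be missed, here and in the classes below. By gene, 28 of the 38 members have TTTGAA in at least 1 window; of these 9 fell and 1, CDC20, rose, with a median log2 fold change of -0.42 and a median gene length of 3.37 kb. Among the 10 without it 2 fell (CENPE and BUB1) and 3 rose (SPC24, PTTG1 and AURKB), with a median of -0.12 and a median length of 2.54 kb. With length and GC content offset the medians were -0.11 with TTTGAA and -0.05 without it, so most of the difference between the classes was not seen there.

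Among the cleavage furrow genes ANLN and ECT2 fell, and CIT, RACGAP1 and PRC1 did not pass. Once length and GC content were offset ANLN still passed, at -1.02, while ECT2 at -0.61 did not (edgeR adjusted p = 0.0625). ANLN (ENSG00000011426, chromosome 7, 36389821 to 36453791, plus strand, GRCh38.p13) encodes anillin, the scaffold that ties actin, myosin and septins to the furrow. It stood at 115, 112 and 154 CPM in the libraries labelled overexpression, against 416, 404 and 321 CPM in controls. The groups were far apart, and no other member fell as much: it averaged 127 ± 23.3 CPM with the label and 380.1 ± 51.8 CPM without (SD, n = 3 each), or an edgeR log2 fold change of -1.58 (SE 0.18, adjusted p = 0.0105). ECT2, the exchange factor that activates RhoA at the equator, stood at 172, 106 and 179 CPM against 347, 355 and 309 CPM in controls (edgeR log2 fold change -1.14, SE 0.21, adjusted p = 0.0132). RACGAP1, its centralspindlin partner, stood at 100.1, 148 and 113 CPM against 171, 159.6 and 158 CPM, so the groups did not overlap, though library 2 came close to control 3 (edgeR log2 fold change -0.44, adjusted p = 0.111). CIT, citron kinase of the midbody, overlapped between groups at 27.8, 13.4 and 21.8 CPM against 30, 32.4 and 19.1 CPM.

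PRC1, which bundles the midzone fibres between separating chromosomes, had a row with 3 to 12 reads per library. A protein-coding row with no symbol, ENSG00000284946, overlaps it on the same strand over 29440 bases, and PRC1-AS1 lies opposite. That unnamed row stood at 0.371, 0.562 and 0.749 CPM in the libraries labelled overexpression, against 2.97, 2.67 and 2.32 CPM in controls. The counting of reads shared by overlapping genes is not stated, so the level of PRC1 is uncertain and it takes no part in the comparisons of levels below.

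In the spindle checkpoint BUB1B, TTK and BUB1 fell, and BUB3 and MAD2L1 did not pass. Once length and GC content were offset BUB1B still passed, at -0.99. TTK then stood at -0.55 and BUB1 at -0.38 and did not pass (edgeR adjusted p = 0.0897 and 0.156). BUB3 and MAD2L1 stood at 0.47 each and did not pass. BUB1B (chromosome 15, 40161023 to 40221123, plus strand) encodes BUBR1, a subunit of the inhibitor that captures CDC20. It overlaps PAK6 on the same strand over 3696 bases, and PAK6 stood at 0.474 CPM or less in every library. BUB1B stood at 18.7, 21.2 and 21.7 CPM in the libraries labelled overexpression, against 57.8, 59.1 and 39.4 CPM in controls, with an edgeR log2 fold change of -1.34 (SE 0.21, adjusted p = 0.0109). The libraries labelled overexpression agree closely, while control 3 lies below the other controls. TTK, the kinase MPS1 at the head of the checkpoint, stood at 55.1, 41.6 and 54.4 CPM against 92.8, 104 and 82.1 CPM (edgeR log2 fold change -0.89, SE 0.18, adjusted p = 0.0157). BUB1, the kinase that marks centromeric histone H2A, stood at 72.8, 73.4 and 78.4 CPM against 121, 139 and 122 CPM (edgeR log2 fold change -0.76, SE 0.15, adjusted p = 0.0142). BUB3, the small adaptor that carries BUB1 and BUBR1 to kinetochores, stood at 219.5, 248 and 236 CPM against 264, 269 and 268 CPM, an edgeR log2 fold change of -0.19 (SE 0.13, adjusted p = 0.339). MAD2L1, the closed-form partner of CDC20, overlapped between groups at 124, 169 and 152 CPM against 183, 156 and 161 CPM.

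Kinetochore and centromere genes divided in direction, with KNL1, CENPF and CENPE falling, SPC24 rising and 4 of the 8 not passing. KNL1 (ENSG00000137812, chromosome 15, 40594020 to 40664342, plus strand) encodes the platform that, once phosphorylated by TTK, recruits BUB3 with BUB1 and BUBR1. It stood at 14.3, 7.77 and 15.6 CPM in the libraries labelled overexpression, against 35.5, 39.1 and 34 CPM in controls, an edgeR log2 fold change of -1.53 (SE 0.27, adjusted p = 0.0124). Library 2 labelled overexpression was the lowest. CENPF, a large protein of the outer corona, stood at 236, 109.6 and 262 CPM against 386, 531 and 377 CPM (edgeR log2 fold change -1.09, SE 0.30, adjusted p = 0.0382). The motor CENPE, which carries chromosomes to the spindle equator, stood at 42.5, 26 and 38.9 CPM against 69.2, 68.5 and 66.2 CPM (edgeR log2 fold change -0.93, adjusted p = 0.0197). In both, library 2 was again the lowest and the groups did not overlap.

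The NDC80 complex, the main grip of the kinetochore on microtubules, has 4 subunits, and their transcripts did not move alike. SPC24 (ENSG00000161888, chromosome 19, 11131520 to 11155808, minus strand) stood at 57.6, 55.2 and 45.2 CPM in the libraries labelled overexpression, against 32.5, 24.8 and 23.6 CPM in controls. It was the largest rise among the members: an average of 52.7 ± 6.56 CPM with the label and 27 ± 4.83 CPM without (SD, n = 3 each), or an edgeR log2 fold change of 0.96 (SE 0.20, adjusted p = 0.0159). SPC25, its partner in the inner dimer, stood at 65.7, 67.1 and 65.5 CPM against 60.1, 64.3 and 55.8 CPM (edgeR log2 fold change 0.14, adjusted p = 0.533). The outer dimer lay lower: NDC80 at 55.3, 54.1 and 58.6 CPM against 64.9, 73.6 and 70.6 CPM, with an edgeR log2 fold change of -0.32 (adjusted p = 0.163). NUF2, which RGS5 overlaps on the opposite strand over 55216 bases, stood at 63.5, 70.4 and 71.7 CPM against 86.6, 86.5 and 81.4 CPM, with an edgeR log2 fold change of -0.31 (adjusted p = 0.164). CENPA, the histone H3 variant that marks centromeres, stood at 36.5, 39.3 and 38.5 CPM against 31.7, 25.9 and 36.1 CPM (edgeR log2 fold change 0.29, adjusted p = 0.290); it overlaps SLC35F6 on the same strand, so its counts are uncertain.

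In the chromosomal passenger complex AURKB rose and the other subunits did not pass. AURKB, its kinase, stood at 103, 117 and 106 CPM in the libraries labelled overexpression, against 68.5, 81 and 77.3 CPM in controls (edgeR log2 fold change 0.52, SE 0.15, adjusted p = 0.0419). The groups were apart, but once length and GC content were offset the log2 fold change was -0.05. BIRC5, survivin, which docks the complex on centromeres, stood at 136, 251 and 137 CPM against 121, 114 and 128 CPM, and library 2 carries most of that difference (edgeR log2 fold change 0.53, SE 0.24, adjusted p = 0.151). INCENP, the scaffold that activates the kinase, had low values at 10.9, 31.3 and 14.5 CPM against 38.6, 44.5 and 38.8 CPM. Libraries 1 and 3 labelled overexpression were far below the controls and library 2 was closer, which gave a wide error (edgeR log2 fold change -1.10, SE 0.35, adjusted p = 0.0573). The authors' deposited table has INCENP at -1.14 (adjusted p 0.00954). CDCA8, borealin, overlapped between groups at 47.3, 93.1 and 68.8 CPM against 83.4, 76.5 and 88.5 CPM.

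**Figure D2:**
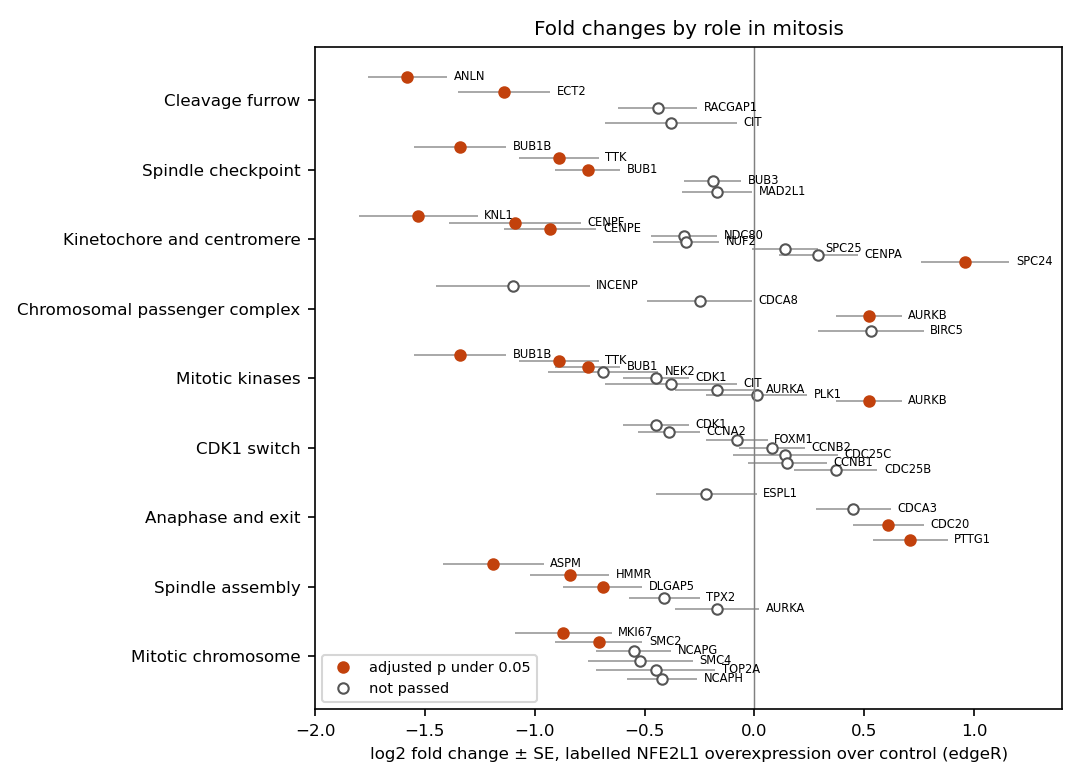
Log2 fold changes of the members (libraries labelled NFE2L1 overexpression over control, edgeR, bars ± 1 SE) are laid out by role, PRC1 left out; filled points passed an adjusted p of 0.05 and open points did not. A gene with 2 roles stands in both rows. All furrow, checkpoint, spindle assembly and chromosome genes drawn lie left of 0, the CDK1 switch lies on both sides of 0, and SPC24, AURKB, CDC20 and PTTG1 lie to the right.

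The switch that drives entry into mitosis did not pass for any of its 7 genes, and their median log2 fold change was 0.08. CDK1 stood at 244, 269.5 and 301 CPM in the libraries labelled overexpression, against 343, 357 and 414 CPM in controls (edgeR log2 fold change -0.45, SE 0.15, adjusted p = 0.0655). The groups did not overlap, and the authors' deposited table gives -0.48 (adjusted p 0.0446). CCNA2, the cyclin of S phase and early mitosis, stood at 119.6, 120.3 and 131 CPM against 167, 157 and 163 CPM (edgeR log2 fold change -0.39, SE 0.14, adjusted p = 0.0754). The mitotic cyclin CCNB1 overlapped at 183, 274 and 213 CPM against 188, 197 and 219 CPM, and CCNB2 at 66.1, 77.4 and 71.8 CPM against 69.1, 64.2 and 70.7 CPM. Of the phosphatases that release CDK1 from inhibition, CDC25B stood at 145, 138 and 153 CPM against 86.1, 118 and 135 CPM (edgeR log2 fold change 0.37, SE 0.19, adjusted p = 0.193) and CDC25C at 14.6, 26.2 and 20.8 CPM against 17.4, 17.7 and 20.7 CPM. FOXM1, the transcription factor of late cell cycle genes, stood at 177, 179 and 188 CPM against 169, 207 and 196 CPM, a log2 fold change of -0.08 (SE 0.14).

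The list of mitotic kinases divided as well: of its 9 genes BUB1, BUB1B and TTK fell, AURKB rose and 5 did not pass. These fallers and AURKB were already counted above, under the checkpoint and the passenger complex. BUB1B was placed in this list too, though it is described above as a subunit of the checkpoint inhibitor. PLK1, which triggers spindle assembly and exit, stood at 50.6, 95.3 and 70.2 CPM in the libraries labelled overexpression, against 64.3, 73.4 and 77.8 CPM in controls. AURKA, the spindle pole kinase, stood at 82, 126 and 100 CPM against 120.0, 105 and 122 CPM. In both genes library 1 labelled overexpression was the lowest of all and library 2 the highest, so the groups overlapped (log2 fold changes 0.01, SE 0.23, and -0.17, SE 0.19). NEK2, which splits the centrosomes, stood at 48.6, 89.7 and 86.1 CPM against 112, 106 and 144 CPM, below every control but with library 1 well under the others (edgeR log2 fold change -0.69, SE 0.25, adjusted p = 0.0787).

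The genes listed under anaphase onset and exit had the highest median of the roles, 0.53. Of these CDC20 and PTTG1 rose, and CDCA3 and ESPL1 did not pass. Once length and GC content were offset the median of these 4 genes was 0.03, and neither CDC20 (0.05) nor PTTG1 (0.26) passed. CDC20, the activator of the anaphase-promoting complex, stood at 227, 307 and 232 CPM in the libraries labelled overexpression, against 162, 171 and 169 CPM in controls (edgeR log2 fold change 0.61, SE 0.16, adjusted p = 0.0332). PTTG1, securin, which restrains separase, stood at 251, 339.5 and 258 CPM against 175, 159.6 and 184 CPM (edgeR log2 fold change 0.71, SE 0.17, adjusted p = 0.0224). In both, all 3 libraries labelled overexpression were above the controls and library 2 was the highest. PTTG1 has the near-identical copies PTTG2 and PTTG3P, and CDC20 the pseudogene CDC20P1, so part of their reads could be split between loci. ESPL1, separase itself, overlapped at 26, 47.4 and 30.4 CPM against 41.3, 40.2 and 39.7 CPM. CDCA3 is an adaptor in the destruction of the CDK1 inhibitor WEE1, a role in mitotic entry, though it was counted in this list. It stood at 75.5, 82.4 and 85 CPM against 49.7, 59.6 and 68.2 CPM, an edgeR log2 fold change of 0.45 (SE 0.17, adjusted p = 0.091).

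Spindle assembly genes all had negative fold changes, with ASPM, HMMR and DLGAP5 falling of 5 tested. Once length and GC content were offset the median of the 5 was -0.31, and 0 of them passed. ASPM, a pole protein whose mutation causes small brains, stood at 59.2, 34.9 and 65.8 CPM in the libraries labelled overexpression, against 124, 119.7 and 121 CPM in controls (edgeR log2 fold change -1.19, SE 0.23, adjusted p = 0.0145). The controls differ by little and library 2 labelled overexpression is the lowest. HMMR, a spindle and hyaluronan receptor protein, stood at 33.6, 38.3 and 47.8 CPM against 69, 72.5 and 72.2 CPM (edgeR log2 fold change -0.84, SE 0.18, adjusted p = 0.0179). DLGAP5, which stabilises kinetochore fibres, stood at 32.9, 31.7 and 43.6 CPM against 57.3, 57.8 and 60.2 CPM (edgeR log2 fold change -0.69, SE 0.18, adjusted p = 0.0304). TPX2, the activator of AURKA on spindle fibres, stood at 196, 256 and 224 CPM against 312, 327 and 261 CPM, with no overlap but no call (edgeR log2 fold change -0.41, SE 0.16, adjusted p = 0.103).

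Among genes of the mitotic chromosome MKI67 and SMC2 fell, and the other 4 of the 6 had negative fold changes that did not pass. Their median length was 5.81 kb. Once length and GC content were offset the median of the 6 genes was -0.02, and neither MKI67 (-0.48) nor SMC2 (-0.07) passed. NCAPG, SMC4 and TOP2A then stood at 0.01, 0.07 and 0.13. MKI67 encodes the Ki-67 protein that coats chromosomes and is used as a marker of proliferating cells. It stood at 234, 168 and 297 CPM in the libraries labelled overexpression, against 395, 493 and 389 CPM in controls (edgeR log2 fold change -0.87, SE 0.22, adjusted p = 0.0274). SMC2, an ATPase arm of condensin, stood at 197, 115 and 167 CPM against 253, 284 and 248 CPM (edgeR log2 fold change -0.71, SE 0.20, adjusted p = 0.0418). Its partner SMC4 stood at 469, 239 and 431 CPM against 508, 615 and 515 CPM, and TOP2A, the topoisomerase that untangles sister chromatids, at 508, 219 and 412 CPM against 477, 581 and 498 CPM. In SMC4 and TOP2A library 2 labelled overexpression stood far below the other libraries, and for TOP2A library 1 lay inside the control range (log2 fold changes -0.52, SE 0.24, and -0.45, SE 0.27). The condensin subunits NCAPG and NCAPH had log2 fold changes of -0.55 (edgeR adjusted p = 0.0537) and -0.42 (edgeR adjusted p = 0.0863), with NCAPG at 156, 137 and 199 CPM against 225, 246 and 249 CPM and NCAPH at 53.7, 63.5 and 59 CPM against 80.2, 84.5 and 71.5 CPM.

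Partner genes could also be set against each other within each library, as ratios of CPM per kilobase of gene length. These are descriptions with no test. Where a gene lay above all controls and its partner below them, the ratio had to separate. That holds for SPC24 with NDC80 and for AURKB with INCENP, so these ratios add nothing to the levels above. Dividing by a fixed length also leaves each library's trend on length and GC content in place. SPC24 over NDC80 was 0.957, 0.937 and 0.709 in the libraries labelled overexpression, against 0.46, 0.31 and 0.307 in controls, while NUF2 over NDC80 overlapped at 1.24, 1.41 and 1.32 against 1.44, 1.27 and 1.25. SPC24 was thus higher relative to NDC80 in every library with the label, and the outer pair overlapped. KNL1 over NDC80 was 0.0593, 0.033 and 0.0613 against 0.126, 0.122 and 0.111. AURKB over INCENP was 31.3, 12.4 and 24.3 against 5.88, 6.02 and 6.59. BUB1B over BUB3 was 0.179, 0.18 and 0.193 against 0.46, 0.461 and 0.309. PTTG1 over ESPL1, securin over its target, was 89.5, 66.3 and 78.7 against 39.2, 36.8 and 42.9. CCNB1 over CDK1 was 0.7, 0.946 and 0.659 against 0.509, 0.512 and 0.493, and ANLN over RACGAP1 0.754, 0.498 and 0.896 against 1.59, 1.66 and 1.33. The condensin pairs overlapped between groups, with SMC2 over SMC4 at 0.363, 0.416 and 0.334 against 0.429, 0.398 and 0.415.

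**Figure D3:**
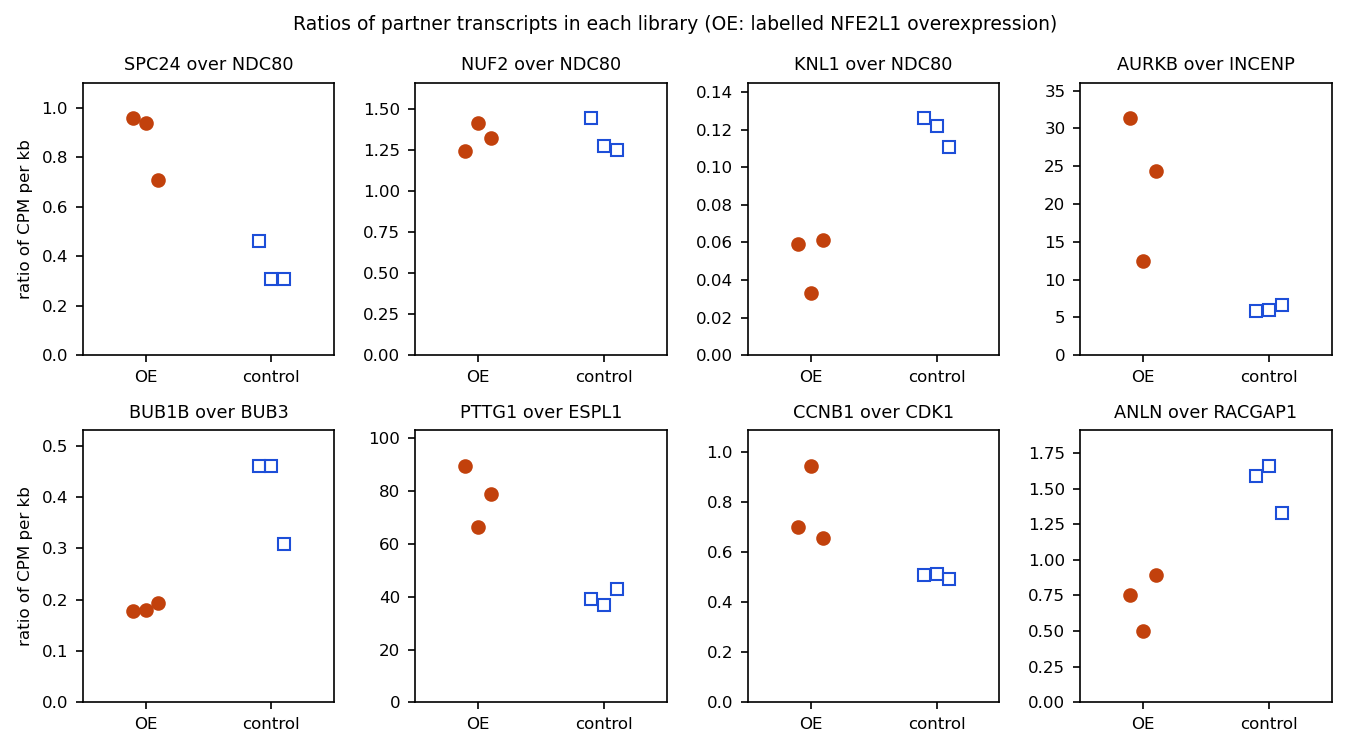
Each panel plots, for 1 pair of partner genes, the ratio of their CPM per kilobase in each library on an axis from 0; filled circles are the 3 libraries labelled NFE2L1 overexpression (OE) and open squares the 3 controls. The groups are apart in all panels but NUF2 over NDC80. Not every pair computed is drawn, and the condensin pairs, which overlapped between groups, are left out.

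Per kilobase, PTTG1 was the most abundant member in both groups, at 396 ± 68.6 CPM per kb in the libraries labelled overexpression and 242 ± 17.4 CPM per kb in controls (SD, n = 3 each). CDK1 followed in controls at 197 ± 19.7 CPM per kb, with 144 ± 15.2 CPM per kb in the libraries labelled overexpression. At the low end, KNL1 stood at 1.36 ± 0.454 against 3.91 ± 0.28 CPM per kb and CIT at 2.4 ± 0.829 against 3.11 ± 0.811 CPM per kb. In controls the means of KNL1 and CIT lay within their spread. Within each control KNL1 was the higher, at 3.83, 4.22 and 3.67 against 3.43, 3.71 and 2.19 CPM per kb for CIT. Within each library labelled overexpression CIT was the higher, at 3.18, 1.53 and 2.49 against 1.54, 0.838 and 1.69 CPM per kb for KNL1. The difference was not tested.

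The fold changes followed gene length and base composition, in the members as in all genes. Gene length here is the length implied by counts over FPKM, not the span between a gene's coordinates. For ANLN it is 4.73 kb. Across the 46 members, which share the 6 libraries, Spearman's rho of the log2 fold change was -0.66 with gene length and 0.61 with GC content; over all genes tested the values were -0.54 and 0.55. Of 9 members under 2 kb 3 rose and 0 fell, with a median of 0.29, beside 22.4% rising, 1.30% falling and a median of 0.48 over all 4771 genes of that length. Between 2 and 4 kb 1 of 20 rose and 5 fell (5% and 25%), with a median of -0.28, beside 5.71%, 7.18% and 0.05 over 5127 genes. At 4 kb and over 0 of 17 rose and 8 fell (47.1%), with a median of -0.71, beside 1.67%, 19.4% and -0.38 over 5148 genes. The members' medians were below those of all genes in each class.

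With an offset that removes each library's trend on length and GC content, 3 members fell and 0 rose, where 0.538% of all genes fell and 1.06% rose. They were ANLN (edgeR log2 fold change -1.02, SE 0.15, adjusted p = 0.0334), BUB1B (-0.99, SE 0.18, edgeR adjusted p = 0.0448) and KNL1 (-0.85, SE 0.17, edgeR adjusted p = 0.0477). INCENP, which had not passed before, stood at -1.32 (SE 0.28, edgeR adjusted p = 0.0529) and SPC24 at 0.74 (SE 0.20, edgeR adjusted p = 0.0875). The other risers lost most of their difference, with CDC20 at 0.05, PTTG1 at 0.26 and AURKB at -0.05. Long genes that had fallen moved toward 0 too: CENPE of 8.54 kb stood at -0.20 and SMC2 of 5.93 kb at -0.07, against CENPF, ASPM and MKI67 at -0.49, -0.49 and -0.48. The median of the members was -0.13, and that of all genes 0.02.

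**Figure D4:**
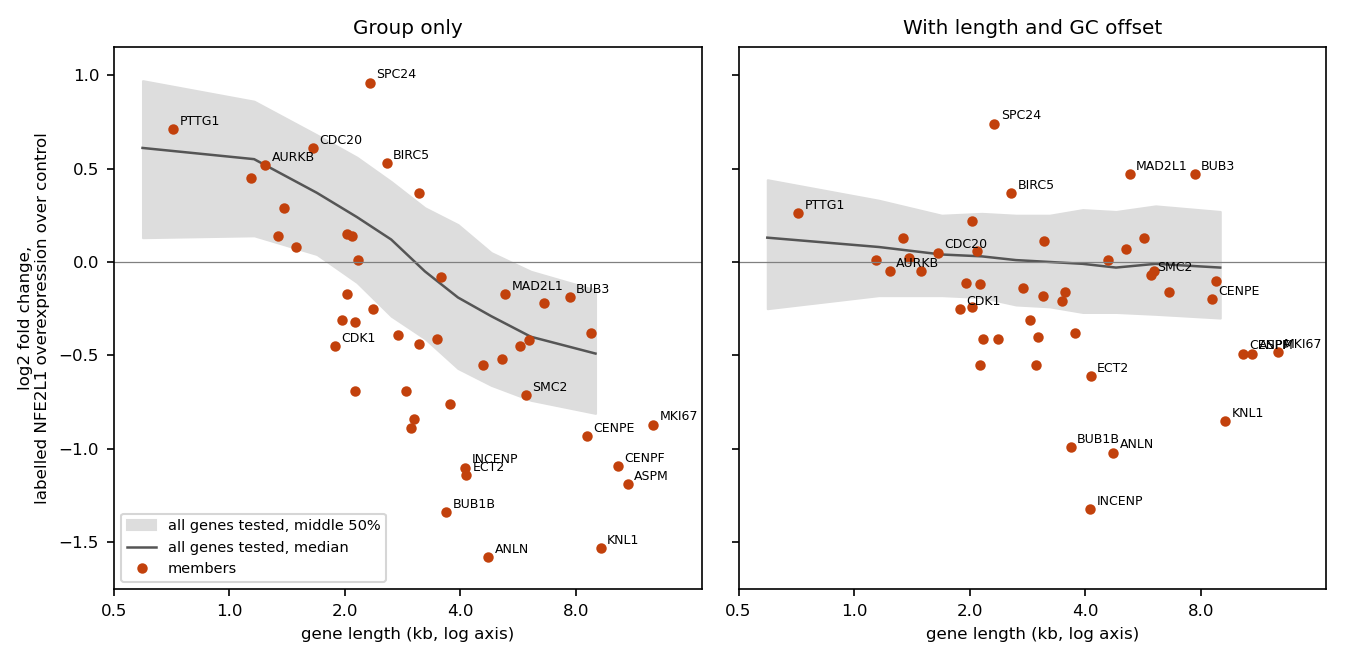
Log2 fold changes of the members (points, PRC1 left out) are plotted against gene length on a log axis, without an offset on the left and with the length and GC offset on the right; the line and band give the median and middle 50% of all genes tested in 10 bins of length. On the left the members run downward with the line, and on the right ANLN, BUB1B, KNL1 and INCENP stay well below the band.

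The other genes of cell division were taken in 11 lists chosen by role, with earlier results of these data known. Their shares are therefore no independent check of the members. Of 149 genes tested 40 fell and 13 rose, or 26.8% and 8.72%, beside 9.49% and 9.62% of all genes. Without control 2 no gene of the table passed, and without control 1 only 1 gene did (edgeR; 3863 and 3962 genes at an unadjusted p under 0.05). With the length and GC offset ANAPC16, chosen here by its value, was the 1 gene of these lists that passed (edgeR log2 fold change 0.93, adjusted p = 0.0471). Among 22 further kinetochore genes 3 fell and 2 rose, with PMF1 and CENPM at 1.26 and 0.97 (edgeR adjusted p = 0.0113 and 0.0132). Of 9 further checkpoint genes 1 fell, SPDL1 at -0.77 (edgeR adjusted p = 0.0212), while SGO2 and KNTC1 had -0.76 and -0.83 and did not pass. The anaphase-promoting complex had 3 down and 3 up of 18, with the small subunits ANAPC11 and ANAPC15 at 1.19 and 0.85 and the large scaffold ANAPC1 at -0.71 (edgeR adjusted p = 0.0159, 0.0147 and 0.0271).

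Cohesin, the ring that holds sister chromatids, had 6 of 12 genes falling and 0 rising, beside 9.49% and 9.62% of all genes tested. Among the fallers were RAD21 at -0.82, SMC1A at -0.91 and SMC3 at -0.93 (edgeR adjusted p from 0.0117 to 0.0242). The 12 genes had a median length of 6.12 kb, and of all genes of 4 kb and over 19.4% fell. With the length and GC offset 0 of the 12 passed, at a median of -0.25. Of 4 further condensin genes NCAPG2 and NCAPD3 fell, at -0.83 and -0.66, and NCAPH2 at 0.63 did not pass (edgeR adjusted p = 0.132). Among 12 genes of mitotic entry and exit 4 fell and 2 rose, with the centriole kinase PLK4 at -1.03, the CDK1 inhibitor WEE1 at -0.83 and the Greatwall kinase MASTL at -0.75 (edgeR adjusted p from 0.0144 to 0.0223). Spindle factors had 5 of 19 falling and 0 rising; the 3 with the smallest adjusted p were CKAP5 at -1.18, CKAP2 at -0.87 and the motor KIF18A at -1.13. Further cytokinesis genes had 7 of 16 falling and 1 rising, with SEPTIN7 at -0.83, the centralspindlin motor KIF23 at -0.73 and the citron kinase partner KIF14 at -1.28. These 6 passed with edgeR adjusted p from 0.0105 to 0.0220.

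The regulators above these genes were also measured. Of 16 DREAM, MuvB, E2F and pocket protein genes 7 fell and 0 rose, beside 9.49% and 9.62% of all genes tested. Among the fallers were the pocket protein genes RB1 at -1.41 and RBL2 at -1.07 and the repressor E2F7 at -1.36 (edgeR adjusted p from 0.0105 to 0.0144). The 16 genes had a median length of 4.24 kb. With length and GC content offset 0 of the 16 passed, at a median of -0.22. Among 13 arrest genes 3 rose and 1 fell. CDKN2A, which encodes p16 and ARF, averaged 235 CPM in the libraries labelled overexpression and 121 CPM in controls (edgeR log2 fold change 0.96, SE 0.16, adjusted p = 0.0116), and CDKN1C and SFN rose by 1.30 and 1.07. With length and GC content offset none of the 3 passed, with CDKN2A at 0.13, SFN at 0.24 and CDKN1C at 0.70 (edgeR adjusted p = 0.624, 0.406 and 0.340). CDKN1A, the p53 target p21 that restrains CDK1 and CDK2, overlapped at 70.1, 201 and 102 CPM in the libraries labelled overexpression, against 81.6, 91.4 and 163 CPM in controls (log2 fold change 0.15, SE 0.39). CDKN1B and GADD45A did not pass either, at -0.15 and 0.24. Of 8 G1 cyclin and kinase genes CDK4 and CCND3 rose by 0.60 each, and CCNE2 fell by 1.06 on the log2 scale.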

How the data were processed

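For 6 libraries the deposited table holds raw gene counts and FPKM, per the file headers. It also holds log2 ratios and p-values of a comparison by the authors, deposited without naming the test. Library kits were stranded, per the labels' protocols. Trimmomatic 0.36 and GRCh38 are named in the submitters' processing notes, and positions are GRCh38.p13, per the file headers; the aligner and counter are not stated. The lowest sum of a gene over the 6 libraries is 10 reads, and 0 pairs of libraries were identical.

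Counts were tested with edgeR 4.0.16 (R 4.3.3; filterByExpr, TMM, glmQLFit, glmQLFTest, group only), with Benjamini-Hochberg adjustment over 15046 genes at 0.05. The standard error is the absolute log2 fold change over the square root of F. Gene length came from counts over FPKM and is not the span between a gene's coordinates. The offset is a smooth (mgcv 1.9.3) of each library's log2 deviation on length and on GC content of the longest GENCODE 29 transcript, which matched 98.45% of genes. DESeq2 1.42.0 and limma 3.58.1 were alternatives, with other filters and scalings, a replicate block, and fits that lack 1 library.

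The members and gene lists were chosen with earlier results of these data known. All members are named; of each other list the 3 genes with the smallest adjusted p are, with CDKN1A, CDKN1B and GADD45A. A result for 1 of these genes is not reported here. Lists are described by counts, with no set test. Depth of 16865460 to 23458333 reads sets the precision of each library; the labels give no batch.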

Additional observations from a re-analysis of the deposited data

How the results depend on the processing

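The 13 falls and 4 rises among the members, and their median of -0.38, were recomputed under 18 other settings. Without a filter, with a stricter filter, with DESeq2 size factors and with the DESeq2 Wald test, 3 to 4 rose and 13 to 17 fell. Total counts gave 2 rising, 21 falling and a median of -0.51; FPKM brought to a common sum gave 0 and 31; limma gave 23 falling with a median of -0.52 on log2(FPKM + 1) and 22 with -0.53 on log2(FPKM + 0.1). The length and GC offset gave 0 rising, 3 falling and a median of -0.13, and the length offset alone 1 rising and 10 falling, with 9 of the 17 members still called. Leaving out single libraries gave 0 to 4 rising, 0 to 19 falling, medians from -0.40 to -0.32 and log2 fold changes of NFE2L1 from 0.25 to 1.14, the last without library 1 labelled overexpression, where NFE2L1 passed (edgeR adjusted p = 0.0286). Of the 17 called members 15, 17 and 12 were kept without libraries 1, 2 and 3 labelled overexpression, and 0, 0 and 7 without controls 1, 2 and 3. The cause was not tested.

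With the replicate number as a block 0 members rose and 0 fell (edgeR; 5 and 18 at an unadjusted p under 0.05, and no gene of any kind passed), and with the block and the offset 0 and 0, at a median of -0.13. The labels do not say whether the numbers pair the libraries. Same-numbered libraries' deviations from their group means correlated at 0.006, -0.51 and 0.088. Library 1 labelled overexpression correlated best with control 2, at 0.60. Deviations from a mean of 3 libraries constrain each other, so these values cannot settle whether the libraries are paired.

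Signs changed for some genes that had not passed, and for AURKB. With the length and GC offset NCAPG had 0.0089, SMC4 0.07, TOP2A 0.13, BUB3 and MAD2L1 0.47, PLK1 -0.41, CCNB2 -0.048, AURKB -0.053, CDKN1A -0.32 and GADD45A -0.21; with the block added, in the same order, 0.008, 0.063, 0.10, 0.43 (both), -0.42, -0.051, -0.051, -0.35 and -0.28. The length offset gave CIT 0.095, ESPL1 0.26, BUB3 0.30, MAD2L1 0.18, FOXM1 0.056, PLK1 -0.19, CCNB2 -0.30, SPC25 -0.28, CDC25C -0.064, CCNB1 -0.069, CENPA -0.10, CDKN1A -0.06 and GADD45A -0.20. PLK1, at 0.01, was -0.018 without a filter, -0.007 with DESeq2 size factors, -0.029 with DESeq2 and -0.038 with the block. On a common FPKM sum PLK1 was -0.034 after the median of all genes there, -0.41, was subtracted. Total counts gave PLK1 -0.14, CCNB2 -0.061, CDC25C -0.00029 and CDKN1A -0.0074. On log2(FPKM + 1) PLK1 had -0.17, CCNB2 -0.061, CDC25C -0.025, CCNB1 -0.0015, CDKN1A -0.054 and GADD45A -0.0078, and on log2(FPKM + 0.1) -0.18, -0.062, -0.031, -0.0016, -0.056 and -0.0084. Leaving out single libraries gave ranges that cross 0 for PLK1 (-0.25 to 0.20), CDC25C (-0.074 to 0.34), CCNB1 (-0.025 to 0.28), PRC1 (-0.29 to 0.62), CDKN1A (-0.38 to 0.52) and GADD45A (-0.28 to 0.48).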
